A study of Mus musculus with 6 samples.

Results

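The regenerating (Reg) genes encode small secreted proteins with a C-type lectin fold. The family described here held 7 genes, Reg1, Reg2, Reg3a, Reg3b, Reg3d, Reg3g and Reg4. They were taken by symbol, in GENCODE M21 names on the GRCm38 build, from the 46983 genes of a count table, and all 7 had enough counts to be tested. Polyadenylated RNA was sequenced from isolated islets of wild-type mice after 24 h in CMRL medium, with 3 libraries at low (non-stimulating) glucose and 3 at high (stimulating) glucose. The glucose concentrations, the mouse strain, sex and age, and the number of animals per library are not stated in the sources used here. Since separate animals or cultures are not stated either, p-values here reflect the spread between libraries alone, which may be technical.

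Reg1 is a secretory product of pancreatic acinar cells, the cells that make digestive enzymes. Reg2 and the Reg3 genes are known as injury-response genes: in the pancreas they are switched on in inflamed or damaged acinar and islet tissue, and in the gut Reg3b and Reg3g are antibacterial lectins of the epithelium. Cytokines that signal through gp130 or the IL-22 receptor and the transcription factor STAT3 are known inducers of Reg3 genes, Reg4 is known mainly from intestinal epithelium, and the protein EXTL3 has been reported as a Reg receptor.

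The libraries held 10596020 to 15846235 counts, and their content went only partly with the labelled tissue. A list of 28 acinar enzyme genes took 48.0%, 63.6% and 61.2% of all counts in the low glucose libraries and 12.5%, 24.9% and 24.1% in the high glucose libraries, while 20 hormone and granule genes took 2.35% to 11.1%. Unless said otherwise, levels are counts scaled to a library of 1000000 (CPM) on library sizes scaled by TMM, a method that sets most genes to no change. On that scale the median log2 fold change of the 13996 genes tested was 0.01, against 1.16 when library totals were used. In bulk tissue, fewer acinar cells and less RNA per acinar cell cannot be told apart. Both libraries numbered 3 held 0 counts of Xist, the X-inactivation RNA (up to 3 counts are allowed by a count of 0), against 581 to 2497 in the other 4, and 4 Y-linked genes summed to 230 to 1713 counts in each of the 6. The labels give no sex.

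The family sits at 2 places in the genome. Reg3b (chr6:78370657-78373466), Reg3d (chr6:78375874-78378865), Reg3a (chr6:78380709-78383827), Reg2 (chr6:78395623-78408106), Reg1 (chr6:78422711-78428667) and Reg3g (chr6:78466269-78468872) lie in this order within 98.2 kb of chromosome 6 on GRCm38, with no other annotated gene between them. Reg3d and Reg3g are on the minus strand and the other 4 on the plus strand, and the head-to-head pair Reg3d and Reg3a is 1843 bases apart. Reg4 lies alone on chromosome 3 (chr3:98222156-98236748, plus strand). The nearest protein-coding gene on one side of the cluster, the cell adhesion gene Ctnna2, did not pass the test (log2 fold change 0.53 ± 0.46 SE, edgeR adjusted p = 0.425), and the other, Gm20594, had 0 counts.

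The sequences upstream of 5 members are shown because 4 of them (Reg2, Reg3a, Reg3b and Reg3g) moved together from library to library and Reg1 did not move with them. They are RefSeq promoters on GRCm38.p6, read 5′ to 3′ on the strand of the gene: Reg2 at chr6:78404905-78405154 (plus strand), Reg3a at chr6:78380459-78380708 (plus), Reg3b at chr6:78370707-78370884 (plus), Reg3g at chr6:78468875-78469124 (minus) and Reg1 at chr6:78425733-78425959 (plus). Capitals mark matches, on either strand, to TTCNNNGAA (the STAT consensus), CTGGGAA (the core of an IL-6 response element) and TATAAA (the TATA box). The RefSeq starts of Reg2, Reg3b and Reg1 lie inside the GENCODE gene spans above, and the stretches of Reg3b and Reg1 are shortened where annotated exons overlap them.
Reg2: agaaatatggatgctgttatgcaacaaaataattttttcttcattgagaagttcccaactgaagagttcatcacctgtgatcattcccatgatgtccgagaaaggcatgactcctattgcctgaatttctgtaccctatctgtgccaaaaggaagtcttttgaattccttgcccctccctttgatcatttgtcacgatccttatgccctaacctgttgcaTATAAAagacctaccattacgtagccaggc
Reg3a: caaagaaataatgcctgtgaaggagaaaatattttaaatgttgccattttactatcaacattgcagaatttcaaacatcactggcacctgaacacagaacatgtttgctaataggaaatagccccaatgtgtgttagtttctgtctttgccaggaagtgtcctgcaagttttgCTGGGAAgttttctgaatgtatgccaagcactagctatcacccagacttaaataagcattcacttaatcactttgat
Reg3b: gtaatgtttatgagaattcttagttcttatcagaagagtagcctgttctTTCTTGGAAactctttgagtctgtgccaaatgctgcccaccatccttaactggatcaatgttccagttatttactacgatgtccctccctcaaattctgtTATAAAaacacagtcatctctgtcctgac
Reg3g: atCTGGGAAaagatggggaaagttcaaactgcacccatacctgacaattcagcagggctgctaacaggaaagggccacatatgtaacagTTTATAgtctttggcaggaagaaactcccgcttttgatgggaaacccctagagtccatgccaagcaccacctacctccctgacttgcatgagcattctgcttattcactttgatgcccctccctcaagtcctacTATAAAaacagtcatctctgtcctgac
Reg1: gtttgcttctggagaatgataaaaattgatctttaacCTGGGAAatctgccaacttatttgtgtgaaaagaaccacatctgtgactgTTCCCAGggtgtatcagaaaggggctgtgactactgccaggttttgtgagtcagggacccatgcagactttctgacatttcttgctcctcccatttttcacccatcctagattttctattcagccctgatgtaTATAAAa

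In the 250 bases before the RefSeq start, a STAT consensus match was present in Reg3b (TTCTTGGAA, first base at -129) and Reg3d (TTCCCAGAA at -238) and not in the other 5, against 7.02% of 32841 promoters of the same length. CTGGGAA was matched at 2 places in Reg1 (-213 and -163) and at 1 place each in Reg3a (-77), Reg3d (-238, overlapping its STAT match) and Reg3g (-248), against 9.10% of promoters. A TATAAA match lay 27 to 30 bases before the start in Reg1, Reg2, Reg3b and Reg3g, with another at -161 in Reg3g. Of all promoters, 12.4% had a match anywhere in the 250 bases. CACCTG, an E-box of the kind bound by the acinar factor PTF1, was matched in Reg2, Reg3a, Reg3b, Reg3d and Reg4 and not in Reg1 or Reg3g, against 17.2%. None of these motifs was matched in all of Reg2, Reg3a, Reg3b and Reg3g. Reg3b and Reg3g shared the longest run of any pair, the 20 bases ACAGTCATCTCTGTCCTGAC at their end, and 70.0% of their 247 aligned bases were the same. These matches describe letters in a window and are not evidence of binding.

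The members' transcripts differ enough that reads of 50 bases have no exact match in common. Between the representative transcripts of any 2 members no stretch of 50 bases was shared, and the longest shared run was 35 bases, in Reg3b and Reg3g. The pair with the highest identity, Reg1 and Reg2, was 80.4% identical over the aligned bases. Read length and strand setting are not stated in the sources used here.

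Per length, Reg1 was the most abundant member in all 6 libraries and Reg4 the least. In CPM per kilobase of coding-transcript exons, the median of the 6 libraries was 8550 for Reg1, 1170 for Reg2, 771 for Reg3b, 290 for Reg3d, 188 for Reg3g, 69.2 for Reg3a and 1.95 for Reg4. The 5 members in the middle had overlapping ranges, from 5.23 (Reg3a) to 14500 (Reg2) CPM per kilobase over libraries. Within each of the 6 libraries, Reg2 was the highest of these 5, and Reg3b was above both Reg3a and Reg3g. The place of Reg3d, and the order of Reg3a and Reg3g, changed from library to library.

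**Figure D1:**
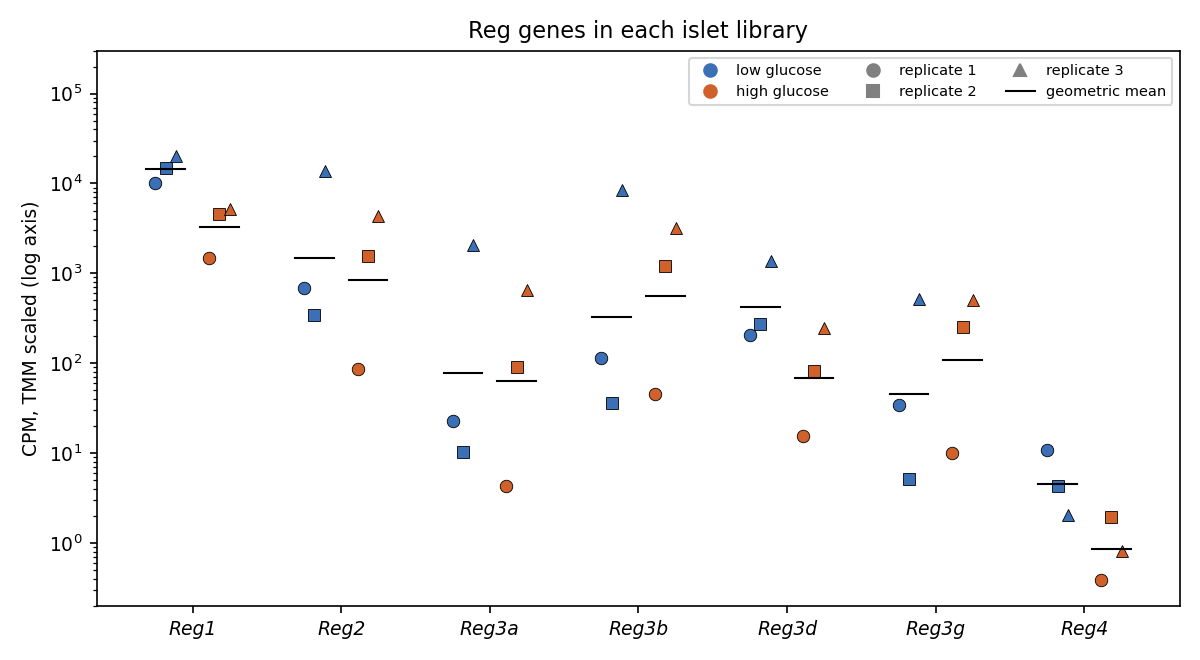
Each of the 7 Reg genes in each library, as TMM-scaled CPM on a log axis; blue is low glucose, orange is high glucose, the marker shape gives the replicate number and the bar the geometric mean of 3 libraries. Reg1 and Reg4 show groups that do not overlap, while Reg2, Reg3a, Reg3b and Reg3g spread over 102-fold to 484-fold across libraries.

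High glucose libraries had less Reg1 and less Reg4 on the TMM scale, and no member was higher. With the quasi-likelihood test of edgeR, 2 of 7 members passed an adjusted p under 0.05, both lower, beside 27.5% of all genes tested (14.2% lower and 13.3% higher). For no member was the log2 fold change positive with an unadjusted p under 0.05 in edgeR, and DESeq2 and limma-voom also called 0 members higher. The groups did not overlap for 2 of 7 members, beside 45.9% of all genes. With 1 library left out, 0 to 1 members were called lower. The share of members called was close to that of genes in general, and the median log2 fold change of the 7 was -1.49.

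Reg1, the acinar secretory lectin, had 10210, 14830 and 20290 CPM in the low glucose libraries 1, 2 and 3, and 1490, 4612 and 5247 CPM in the high glucose libraries. All 3 high libraries were below all 3 low ones. The mean fell from 15110 ± 5044 to 3783 ± 2011 CPM (SD, n = 3 each). The edgeR log2 fold change was -1.998 ± 0.60 (SE, adjusted p = 0.0435), which turned to 0.59 when libraries were scaled by their acinar enzyme genes. The Reg1 call was lost with library totals (-0.83, adjusted p = 0.0873, edgeR) and when any library but high glucose 1 was left out, with log2 fold changes of -2.30 to -1.72 in those 5 fits. With the replicate number as a block, the adjusted p was 0.00166 (edgeR). Reg1 was lower in the high library of all 3 numbers, with log2 differences of -2.78, -1.69 and -1.95.

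Set against acinar transcripts, the Reg1 difference had the opposite sign, on a scale where most genes were higher at high glucose. When libraries were scaled by acinar enzyme genes, edgeR called 12237 of 13996 genes higher. The median log2 fold change was then 2.785, above the 0.59 of Reg1. For every 100 counts of the 28 acinar enzyme genes, Reg1 had 2.00, 1.32 and 1.80 counts at low glucose and 2.12, 2.53 and 3.05 at high glucose. The groups did not overlap, and the exact permutation p was 0.10, the smallest that 3 against 3 libraries allow. The genes whose log2 profile over the 6 libraries was nearest to that of Reg1 were Spink1, the acinar trypsin inhibitor (root mean square difference 0.188), Ppic, a cyclophilin (0.189), and Try5, a trypsin of a multigene family whose counts are uncertain (0.196), against a median of 1.30 over 8348 genes. Spink1 and Try5 are both among the 28 acinar genes and fell with the rest of that list, of which 26 of 28 passed as lower (median log2 fold change -2.74).

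Reg2 had 681.5, 342.6 and 13770 CPM at low glucose and 86.0, 1542 and 4361 CPM at high glucose. The highest and the second lowest values both came from the low glucose group, and the groups overlapped. The log2 fold change was -1.30 ± 1.57 (SE) with an edgeR adjusted p of 0.57. It turned to 1.97 without the low glucose library 3, and to 0.69 without both libraries numbered 3. No direction with glucose can be read from it.

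Reg3b, an injury-induced antibacterial lectin also called pancreatitis-associated protein, had 113.6, 36.07 and 8439 CPM at low glucose and 45.07, 1214 and 3158 CPM at high glucose. Low glucose library 3 was 234-fold above low glucose library 2, so the range within one group was as large as the range over all libraries. The log2 fold change was -0.96 ± 1.90 (SE, edgeR adjusted p = 0.738), and it became 4.30 without low glucose library 3, 3.09 without both libraries numbered 3 and 0.10 with the replicate number as a block.

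Reg3a, a further pancreatitis-associated protein gene, had 22.85, 10.14 and 2088 CPM at low glucose and 4.316, 91.31 and 658.9 CPM at high glucose. It varied by 484-fold, the widest range of the family. The log2 fold change was -1.49 ± 2.03 (SE, edgeR adjusted p = 0.617), and 3.92 without low glucose library 3.

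Reg3g, which binds the wall of Gram-positive bacteria in the gut, had 33.9, 5.153 and 524 CPM at low glucose and 10.01, 255.7 and 508.5 CPM at high glucose. It was the one member whose group mean was higher at high glucose, at 258.1 ± 249.3 against 187.7 ± 291.6 CPM (SD, n = 3 each). The log2 fold change of 0.46 was smaller than its SE of 1.58 (edgeR adjusted p = 0.853), and it was -0.485 without high glucose library 3.

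These 4 genes were high in low glucose 3, high glucose 3 and high glucose 2, and low in the other 3 libraries. The libraries numbered 3 are those with 0 Xist counts, and high glucose 2 had 2497. The part of the animals' sex or source in this pattern was not tested. Within replicate number 2, all 4 genes were higher at high glucose, by 2.17 (Reg2), 3.15 (Reg3a), 5.07 (Reg3b) and 5.60 (Reg3g) on the log2 scale. Within number 1 the differences were -2.98, -2.37, -1.33 and -1.75 in the same order, and within number 3 they were -1.66, -1.66, -1.42 and -0.04.

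**Figure D2:**
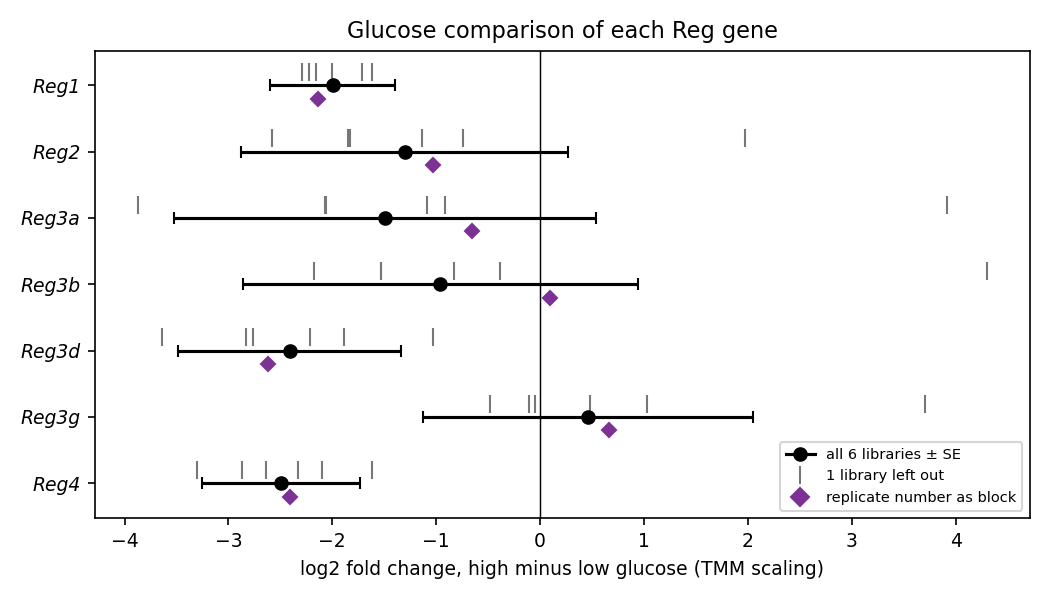
Log2 fold change of each Reg gene, high minus low glucose, with TMM scaling: black points with SE bars use all 6 libraries, grey ticks leave out 1 library in turn and purple diamonds use the replicate number as a block. Reg1, Reg3d and Reg4 stay below 0 in these fits (Reg1 and Reg3d turn positive with acinar scaling), while Reg2, Reg3a, Reg3b and Reg3g fall on both sides of 0.

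The spread of these 4 genes between libraries of the same group was among the widest in the data. The within-group SD of log2 CPM was 3.89 for Reg3a, 3.71 for Reg3b, 3.18 for Reg3g and 2.88 for Reg2, ranks 4, 6, 7 and 10 of 13996 genes, whose median was 0.306. Between groups lay 0.212% of the sum of squares of Reg3a, 1.60% of Reg3b, 2.97% of Reg2 and 5.64% of Reg3g, against 73.4% for Reg1 and a median of 50.2% over all genes. The glucose differences of these 4 genes were not detectable against that spread.

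The 4 genes kept close to one another. By the root mean square difference of centred log2 CPM, the 3 nearest of 8348 genes to each of Reg2, Reg3a, Reg3b and Reg3g were the other 3. The differences were 0.706 for Reg3a and Reg3b, 0.716 for Reg3b and Reg3g, 0.935 for Reg2 and Reg3a, and 1.12 to 1.22 for the remaining pairs, against medians over all genes of 2.39 to 3.17. Reg1 differed from its neighbours in the cluster, Reg2 and Reg3g, by 1.94 and 2.73. As 6 libraries shared by every gene underlie these values, they are a description of the libraries.

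**Figure D3:**
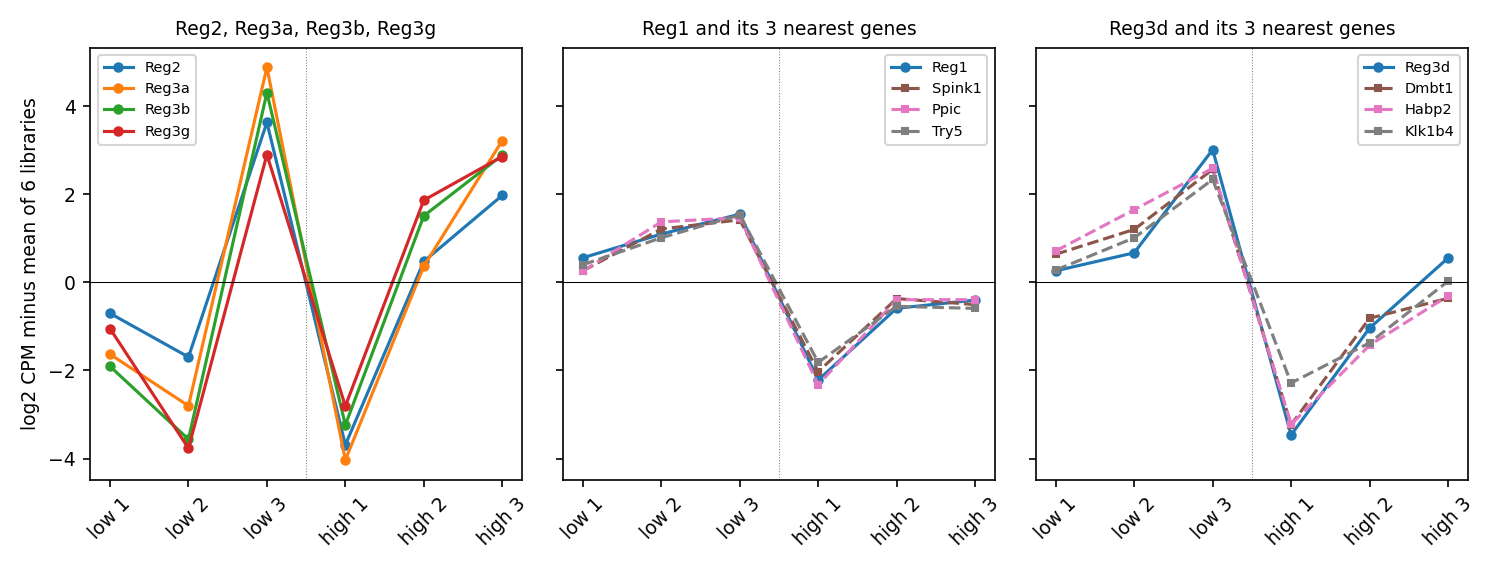
Log2 CPM minus the mean of the 6 libraries, for Reg2 with Reg3a, Reg3b and Reg3g (left), Reg1 with its 3 nearest genes (middle) and Reg3d with its 3 nearest genes (right); lines only join the libraries for the eye. The 4 genes on the left peak in low 3, high 3 and high 2, while Reg1 runs with Spink1, Ppic and Try5.

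Reg3d, a pancreatic member related to islet neogenesis-associated protein, stood between these patterns. It had 203.9, 270.6 and 1372 CPM at low glucose and 15.39, 82.68 and 249.1 CPM at high glucose. Low glucose library 3 was again the highest, but only 1 high library (249.1) exceeded 1 low library (203.9). The log2 fold change was -2.41 ± 1.07 (SE) with an edgeR adjusted p of 0.132. With the replicate number as a block it passed, at -2.62 with an adjusted p of 0.00346 (edgeR), being lower at high glucose in all 3 numbers (-3.72, -1.71 and -2.46), and with acinar scaling it was 0.19. Its nearest gene was Dmbt1, a secreted scavenger protein of epithelia (difference 0.509), followed by Habp2, a plasma serine protease (0.621), and Klk1b4, a kallikrein of a multigene family with uncertain counts (0.646).

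Reg4 was scarce, with 129, 26 and 13 counts in the low glucose libraries and 11, 39 and 16 in the high ones. It had 10.8, 4.322 and 2.044 CPM at low glucose and 0.389, 1.947 and 0.806 CPM at high glucose. The groups did not overlap, though low glucose 3 and high glucose 2 lay close to each other. The mean fell from 5.72 ± 4.54 to 1.05 ± 0.81 CPM (SD, n = 3 each), with a log2 fold change of -2.49 ± 0.76 (SE) and an edgeR adjusted p of 0.0454. The call was lost without low glucose 1 (-1.62), low glucose 2 (-2.64), high glucose 1 (-2.10) or high glucose 3 (-2.33), with library totals (-1.61) and with acinar scaling (-0.35).

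Markers of gut epithelium were lower in the same group as Reg4. Of 19 intestinal epithelium genes, 17 were tested and all 17 were lower at high glucose, and their summed level was 7955, 6211 and 2788 CPM at low glucose and 257.9, 176.9 and 183.8 CPM at high glucose. Of the goblet cell list, 7 genes were tested and 7 were lower, among them the mucin Muc2 (log2 fold change -5.66 ± 0.90 SE, edgeR adjusted p = 0.00473), but Zg16 of that list is also an acinar gene. Of 9 Paneth cell genes 1 was tested and did not pass, and their sum was 4.49 to 44.9 CPM at low glucose and 0 to 2.80 at high glucose. The goblet list summed to 13680, 27480 and 30760 CPM at low glucose and 1265, 2732 and 2732 CPM at high glucose. Like the acinar enzyme sum (511500, 1120000 and 1125000, then 70200, 182100 and 171800 CPM), it was lowest in library 1 of each group. The part of acinar cells in the goblet sum was not tested. Low glucose library 1 was highest for Reg4 and for the intestinal and Paneth sums, but lowest of the low libraries for the goblet sum, and high glucose 1, lowest for Reg4, had the highest intestinal sum of its group. The part of gut tissue in the Reg4 result was not tested.

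The whole family took 1.06%, 0.88% and 2.53% of counts at low glucose and 0.295%, 1.07% and 1.99% at high glucose, with 95% Wilson intervals at most 0.018 percentage points wide, which cover counting error only. The group means, 1.49 ± 0.90% and 1.12 ± 0.85% (SD, n = 3 each), differed by less than the spread (exact permutation p = 0.70). The difference of -0.372 percentage points became -2.20 with the acinar enzyme genes left out of the total (exact permutation p = 0.30), and 0.148 without low glucose 3 or 0.0395 without high glucose 1. Both the total and its make-up changed from library to library. Reg1 was 90.5%, 95.7% and 43.7% of the family's counts at low glucose and 90.2%, 59.1% and 37.0% at high glucose. Reg2 and the 4 Reg3 genes together took between 0.0287% (high glucose 1) and 1.42% (low glucose 3) of a library.

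**Figure D4:**
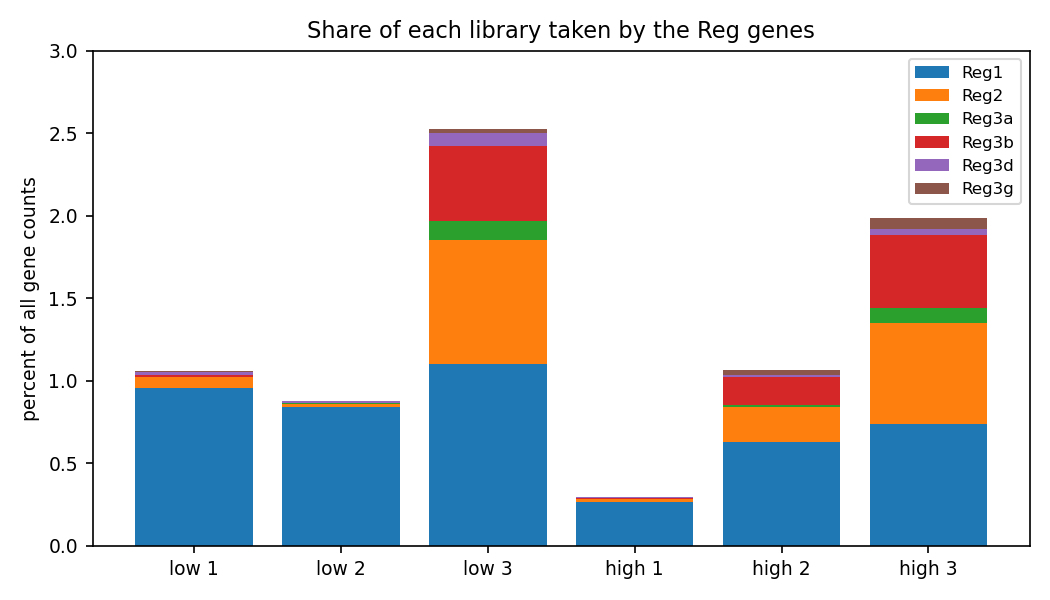
Percent of all gene counts taken by 6 Reg genes, stacked, in each library; Reg4 is too scarce to draw. The total runs from 0.295% to 2.53% and does not separate the groups, and Reg1 makes up most of it in low 1, low 2 and high 1.

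Ratios between members within a library do not depend on how libraries are scaled. Of 21 pairs, 2 had groups that did not overlap, both with Reg3g, and none passed after adjustment (smallest adjusted p = 0.525 from exact permutation tests). Reg3d was above Reg3g in all 3 low glucose libraries, with log2 ratios of 2.59, 5.715 and 1.39, and below it in high glucose 2 and 3, with 0.62, -1.63 and -1.03 in the 3 high libraries. The difference was -3.91 (exact permutation p = 0.10). The log2 ratio of Reg2 to Reg3g was 4.33, 6.05 and 4.72 at low glucose and 3.10, 2.59 and 3.10 at high glucose, a difference of -2.10 (exact permutation p = 0.10). Relative to each of these 2 genes, Reg3g was thus higher in every high library than in any low library, though still below Reg2 in all of them. The p of 0.10 is the smallest that 3 against 3 unpaired libraries allow. It is also the share of all arrangements of the libraries in which the groups do not overlap. The 2 of 21 pairs were close to that share. An exact test on the 3 same-numbered differences gave p = 0.25 for both ratios, the smallest it allows. The steadiest ratio was that of Reg3a to Reg3b, which stayed within 1.90 on the log2 scale while each gene ranged over 234-fold or more.

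Genes around the family were compared next, in 7 lists: inducing ligands, their receptors, JAK and STAT genes, STAT3 targets, the Toll-like receptor arm, a candidate Reg receptor and genes known from injured acinar tissue. Among the 71 genes, 65 were tested, and 26 were higher and 8 lower at high glucose, beside 13.3% and 14.2% of all genes, with a median log2 fold change of 0.60 against 0.01 for all genes. With library totals the split was 48 higher and 5 lower, where 8349 of 13996 genes were higher and 629 lower. Without low glucose 2 the lists had 17 higher, where 708 of 14556 genes were higher. The lists were chosen with earlier results of these data known, so the comparison with all genes is a description and not a test.

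Of 7 ligand genes tested 4 were higher, all of the gp130 family. Il6, the classic acute-phase cytokine, had 0, 0.33 and 0 CPM at low glucose and 15.1, 8.09 and 15.7 CPM at high glucose, or 2 against 901 counts. The CPM ratio was 161, with an exact 95% counting interval of 44.4 to 1330 (edgeR adjusted p = 0.00137). Lif, leukemia inhibitory factor, had 0.63 to 1.09 CPM at low glucose and 22.6 to 31.9 CPM at high glucose, a log2 fold change of 4.88 ± 0.27 (SE, edgeR adjusted p = 3.64e-04). Every high glucose library was above every low one for these genes. This includes high glucose 1, in which Reg2, Reg3a, Reg3b and Reg3g were at or near their lowest. A link between the ligands and the Reg genes was not tested. Il11 had 5 counts over the low libraries (0 in low glucose 3) and 1285 over the high ones, or at most 0.335 CPM against at least 10.3 CPM (edgeR adjusted p = 0.00116). Clcf1, a further gp130 ligand, rose by 2.18 ± 0.37 on the log2 scale (SE, edgeR adjusted p = 0.00573). Il22 and Il17a, the lymphocyte cytokines that induce Reg3 genes in gut, had 0 counts in all low libraries, and Il22 had 3 counts over the high ones.

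Of 11 receptor genes, 2 were higher and 4 lower. Lifr, the LIF receptor, fell from 123.6 ± 18.6 to 29.2 ± 4.64 CPM (SD, n = 3 each), which is -2.08 on the log2 scale and 0.68 with acinar scaling. Il22ra1, the IL-22 receptor subunit of epithelia, had 31.2, 42.2 and 38.8 CPM at low glucose and 2.02, 8.24 and 5.34 CPM at high glucose (-2.86 ± 0.46 SE, edgeR adjusted p = 0.005). Il11ra1 fell by 1.68 and Il6ra by 1.25 on the log2 scale, which became -0.43 and -0.12 with library totals, where both calls were lost, and 1.25 and 1.57 with acinar scaling. The Il6ra call was also lost without low 1 (-1.05) or high 3 (-1.11). Il6ra, Osmr, Il6st, Socs3 and Il22 were singled out after their values were seen. The oncostatin M receptor Osmr rose by 2.02 ± 0.47 (SE, edgeR adjusted p = 0.0178) and lost the call without low 1, low 2 or high 3, while Il6st, which encodes gp130 itself, did not pass (0.55 ± 0.17 SE, edgeR adjusted p = 0.052). Tnfrsf1a, a TNF receptor, was higher by 0.85.

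Several genes downstream of STAT3 rose. Of 15 STAT3 target genes tested, 7 were higher (Socs3, Bcl3, Cebpd, Cebpb, Timp1, Saa3 and Junb), with a median log2 fold change of 1.38. Socs3, the feedback inhibitor of this pathway, had 13.1, 8.15 and 21.4 CPM at low glucose and 71.2, 46.3 and 63.5 CPM at high glucose (2.09 ± 0.34 SE, edgeR adjusted p = 0.00509). Bcl3, Cebpd and Cebpb rose by 2.08, 2.13 and 2.15 on the log2 scale, and Timp1, a metalloproteinase inhibitor, went from 2 to 776 counts. Stat3 itself rose from 110.5 ± 19.4 to 209.3 ± 47.6 CPM (SD, n = 3 each, log2 fold change 0.92, edgeR adjusted p = 0.0223). It lost the call when single libraries were left out (0.85 without low 1, 0.87 without low 2 and 1.00 without high 3).

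The Toll-like receptor arm is known to drive Reg3g in gut epithelium. Of the 9 genes listed with this arm, which also cover the NOD receptor gene Nod2 and its kinase gene Ripk2, 3 were higher and 1 lower. Myd88, the adaptor of the arm, rose by 1.35 ± 0.20 (SE, edgeR adjusted p = 0.00354), Tlr2 by 0.98 and Ripk2 by 0.86. The log2 fold change of Irak1 was -0.76, which became 0.46 with library totals and 2.08 with acinar scaling. Extl3, the candidate Reg receptor, fell from 156.4 ± 34.3 to 36.3 ± 7.14 CPM (SD, n = 3 each, -2.10 ± 0.24 SE, edgeR adjusted p = 0.00152), with 0.68 under acinar scaling. The loss of the Tlr2, Ripk2 and Irak1 calls without single libraries was seen for low 2 (Tlr2), for all 3 low libraries and high 3 (Ripk2) and for 5 of the 6 libraries (Irak1).

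Of 13 genes tested that are known from injured acinar tissue, 8 were higher and 2 lower (Tff2 and Onecut2), with a median log2 fold change of 2.05. Lcn2, an iron-binding acute-phase protein, rose by 6.50, Krt18 by 3.39, Krt7, a duct keratin, by 2.05, and the adhesion receptor Cd44 by 1.75 on the log2 scale. Each of these 4 kept its call in all 6 fits that left out 1 library, but without low 2 only 5 of the list were higher. Of 8 macrophage genes 2 were higher and 1 lower, with sums of 124.7 to 184.5 CPM at low glucose and 59.3 to 184.6 CPM at high glucose. On the same scale none of the Reg3 genes passed as higher, and a link between the listed genes and the Reg genes was not tested.

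**Figure D5:**
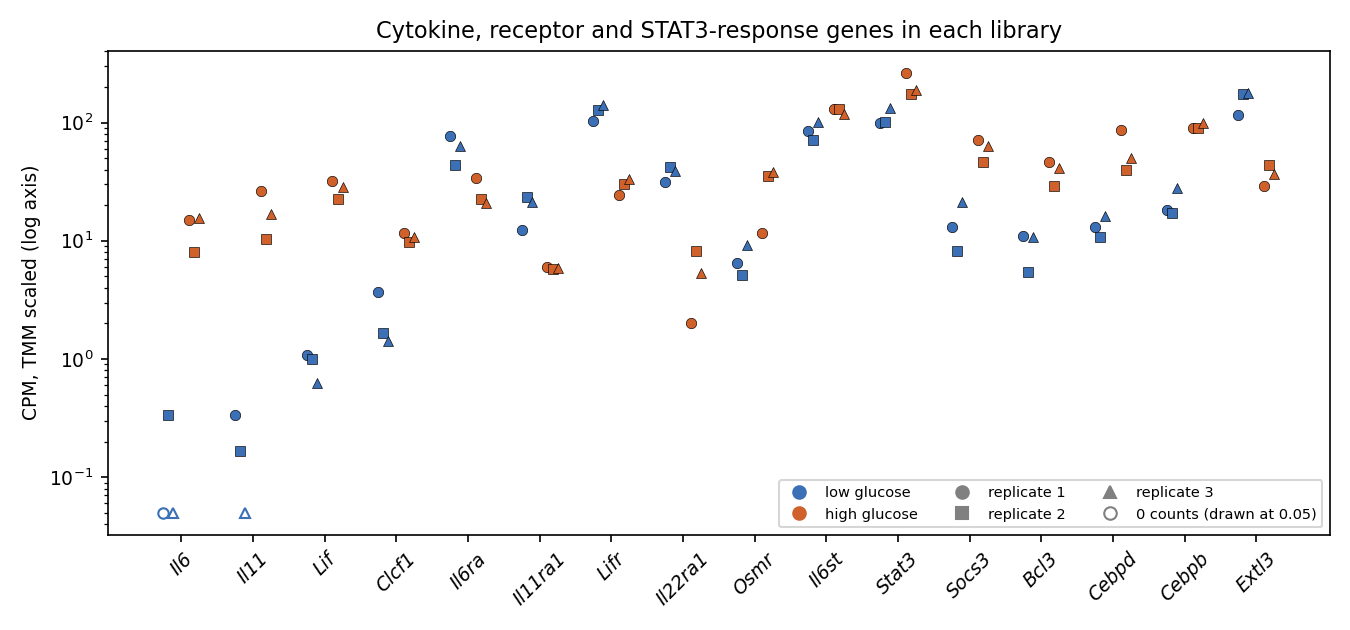
TMM-scaled CPM on a log axis for 16 ligand, receptor, STAT3-response and receptor-candidate genes in each library, coloured and marked as for the Reg genes; open symbols are 0 counts. All high libraries lie above all low ones for Il6, Il11, Lif, Clcf1 and the STAT3-response genes. They lie below for Lifr, Il11ra1, Il22ra1, Il6ra and Extl3. With acinar scaling the last group, Il22ra1 aside, turns positive, on a scale where most genes are positive (median log2 fold change 2.785).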

How the data were processed

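The authors deposited counts of reads per gene for 6 polyadenylated RNA libraries. Per the submitters' processing notes, STAR 2.7.3a, HTSeq 0.6.1p1 and GRCm38 were used. Strand setting, read length and annotation release are not stated in the sources used here. Genes without a name (495) held 0.0141% of counts. Libraries of one group differed beyond sampling noise (chi-square per degree of freedom at least 16.2).

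Groups came from the labels. The glucose groups were tested by edgeR 4.0.16 (quasi-likelihood F-test, R 4.3.3) after TMM scaling and filterByExpr (minimum count 10, minimum total 15), and p-values were adjusted by Benjamini-Hochberg over 13996 genes at a threshold of 0.05. SE was taken as the size of the log2 change over the root of F. Shares and ratios were tested by two-sided exact permutation over libraries. Alternatives were other scalings, filters, DESeq2 1.42.0, limma-voom (limma 3.58.1), the replicate number as a block and each library left out. In a test on simulated data for the high against low glucose comparison, the changed genes were drawn at random from the 13996 genes. Of these, 17 of 100 genes changed 2-fold and 78 of 100 changed 4-fold were recovered, and 6 of 101 calls were unchanged genes. These rates do not describe genes with a spread as wide as that of Reg2, Reg3a, Reg3b and Reg3g. Profiles were compared by the root mean square difference of log2 CPM (prior count 2) among genes with a mean of at least 10 CPM.

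The members and lists were chosen with earlier results of these data known. Named genes were all members, up to 4 genes per signalling list with the smallest p past the threshold, the 3 nearest genes by profile of each member with a mean of at least 10 CPM, and the neighbours of the gene cluster. One gene that this rule names is not reported here. Same-numbered libraries deviated together (correlations 0.403, 0.257 and 0.254, against -0.306 to 0.0748 for the others). The labels state no pairing, and the main edgeR fit and the 3 against 3 permutation tests did not use one. Only the alternatives with the replicate number as a block treated same-numbered libraries as pairs. Promoters were read from RefSeq with Python 3.11.15 and Biopython 1.88, and all 7 members matched.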

Additional observations from a re-analysis of the deposited data

How the results depend on the processing

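Member calls depended on scaling and on single libraries. Of 2 members lower, 0 were called with library totals, with hormone and granule gene scaling, with acinar enzyme scaling and without both libraries numbered 3 (chosen after seeing the data), and 0 to 1 with 1 library left out. Acinar scaling called 4 members higher, where 12237 of 13996 genes were called higher and 239 lower (median log2 fold change 2.785). The edgeR prior degrees of freedom were infinite there, so each gene's own spread was not used. Under that scaling log2 fold changes turned to 0.59 (Reg1), 1.34 (Reg2), 1.20 (Reg3a), 1.73 (Reg3b), 0.19 (Reg3d), 0.68 (Lifr), 1.25 (Il11ra1), 0.67 (Extl3), 1.57 (Il6ra) and 2.08 (Irak1). With library totals they turned to 0.01 (Reg2), 0.39 (Reg3b) and 0.46 (Irak1), and with limma-voom to 0.88 (Reg3b). Without both libraries numbered 3 they were 0.69 (Reg2), 1.53 (Reg3a) and 3.09 (Reg3b). With 1 library left out the ranges were -2.29 to -1.61 (Reg1), -2.59 to 1.97 (Reg2), -3.88 to 3.92 (Reg3a), -2.17 to 4.30 (Reg3b), -3.64 to -1.03 (Reg3d), -0.485 to 3.70 (Reg3g, with -0.046 without low 1 and -0.108 without low 2) and -3.30 to -1.62 (Reg4). The difference in family share ranged from -0.808 to 0.148 percentage points with 1 library left out, and was -2.20 with the acinar enzyme genes and -2.61 with the 20 most abundant genes left out of the total (exact permutation p = 0.30 for both). The cause was not tested.

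Of the signalling genes, 26 higher and 8 lower became 48 and 5 with library totals, 59 and 0 with acinar scaling and 13 and 3 without both libraries numbered 3. Over all genes, 8349 of 13996 were higher and 629 lower with library totals, and 12237 and 239 with acinar scaling. Without both libraries numbered 3, 299 of 14340 genes were higher and 784 lower. Hormone and granule gene scaling gave 5 lower, and leaving out 1 library gave 17 to 30 higher and 6 to 11 lower. With the replicate number as a block (the pairing above), 3 members were lower, the Reg3b log2 fold change was 0.095, the signalling counts were 29 and 8, and 13 of 21 member ratios had 1 sign in all 3 numbers. Member ratios with groups apart numbered 2 to 14 with 1 library left out. Depth limits Reg4, with 11 to 129 counts a library.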

Other observations

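Of the 10 genes with the largest within-group SD of log2 CPM among 13996, 4 were Reg genes (Reg3a, Reg3b, Reg3g and Reg2), 5 were immunoglobulin genes and 1 was Xist. The immunoglobulin genes, products of antibody-forming B-lineage cells, did not follow the Reg genes from library to library. Ighg3 had 101, 512 and 1.10 CPM at low glucose and 41.7, 14.2 and 0.957 CPM at high glucose, so it was lowest in the 2 libraries numbered 3, where Reg3a was highest. Ighv1-11 had 4.18, 157 and 0 CPM at low glucose and 12.9, 5.54 and 0.0504 CPM at high glucose, while Igkv5-39 was high in low glucose 3 (53.5 CPM) and low in high glucose 3 (0.605 CPM). Reads of similar immunoglobulin genes can be split by the counting, so single-gene levels are uncertain. These genes were chosen after their values were seen.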
